A study of Mus musculus with 21 samples.

Results

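The miR-101 family of the mouse heart was followed in 3 rows of a microRNA count table, miR-101a-3p, miR-101b-3p and miR-101c, out of 1903 named rows, of which 832 had a count in any library. The rows were found by name, and the family was selected on its measured counts: earlier results of these libraries had shown it low or missing where the total count was low. Levels in those libraries are therefore given as a description without a test. The libraries came from the left ventricle of 21 C57BL/6J mice, 1 library per mouse. Of these, 5 had sham surgery and no drug (Sham), and 5 had transverse aortic constriction, which overloads the ventricle with pressure, and no drug (TAC). A further 5 had the constriction and the PDE5A inhibitor sildenafil (TAC+PDE5A-I), and 6 had the constriction and PF-04449613, a blocker of PDE9A (TAC+PDE9A-I). Dosing lasted 4 weeks from week 1 after the operation; the sources used here give no dose, age or sex.

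MicroRNAs guide Argonaute proteins to messenger RNAs through their seed, bases 2 to 8, and lower the output of the messages they pair with. miR-101 is best known for repressing EZH2, the histone methyltransferase of Polycomb repressive complex, in human tumours. In rat heart fibroblasts it was described as repressing FOS and limiting scarring after infarction. The 3p arm is the guide strand of the hairpins, and the 5p arm is the passenger strand that is mostly discarded.

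The mature sequences of the 3 members are shown because they overlap, and the counts of the overlapping names are compared further on. They are RefSeq sequences on GRCm38.p6, 5′ to 3′, with the seed in capitals.
miR-101a-3p: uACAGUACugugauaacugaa
miR-101b-3p: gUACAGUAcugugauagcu
miR-101c: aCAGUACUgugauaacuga

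miR-101c consists of bases 2 to 20 of miR-101a-3p, so a read of those 19 letters matches both names. miR-101b-3p starts 1 base further 5′ and carries the substitution A16G in the 18 bases it shares with miR-101a-3p, counted from the 5′ end of miR-101a-3p. As annotated, the 3 members have 3 different seeds, which are the same stretch read in 3 registers. GC content was 33.3% in miR-101a-3p, 36.8% in miR-101c and 42.1% in miR-101b-3p. Among 705 microRNAs with a count and a RefSeq sequence, 2 pairs had a shorter mature sequence wholly within a longer one. The other pair was miR-299b-3p within miR-299a-3p, which was scarce, at 134 and 260 counts over 15 libraries.

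The members lie at separate loci. miR-101a-3p is at chr4:101346957-101346977 on the minus strand, within an exon of the long noncoding RNA E130102H24Rik. miR-101b-3p is at chr19:29135338-29135356 on the plus strand, inside the protein-coding gene Rcl1 and outside its exons. miR-101c is at chr9:3038680-3038698 on the minus strand and overlaps no other GENCODE M21 gene. The hairpins of the first and second members are given with both arms in capitals, to show where the 5p arms described further on come from.
Mir101a: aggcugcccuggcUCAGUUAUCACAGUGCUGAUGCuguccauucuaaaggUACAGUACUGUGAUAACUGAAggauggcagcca
Mir101b: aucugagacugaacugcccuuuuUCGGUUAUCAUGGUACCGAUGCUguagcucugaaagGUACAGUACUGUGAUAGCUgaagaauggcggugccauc

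Total counts ran from 3766517 to 8497792 in 15 libraries. They ran from 1205417 to 3969716 in 6 libraries, the 5 of TAC+PDE5A-I and TAC+PDE9A-I 5, which are called shallow here and the other 15 deep, although TAC+PDE5A-I 2 had a higher total than Sham 4. Levels are given as CPM, the count scaled by the library's total count. A count of 0 allows up to 3 counts, or 0.353 CPM at the greatest depth and 2.49 CPM at the least. This covers counting error only, because PCR copies were not marked by molecular identifiers. The tissue label was checked on 4 microRNAs of heart muscle, miR-499-5p and miR-208a-3p from myosin genes with miR-133a-3p and miR-1a-3p, and all had counts in the 21 libraries.

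In Sham, miR-101a-3p was the most abundant member. Its counts in Sham 1 to 5 were 26857, 12780, 15528, 12782 and 16460, a level of 3032 ± 557 CPM (SD, n = 5). miR-101c had 9834, 4331, 5439, 4597 and 6101 counts, or 1088 ± 231 CPM. miR-101b-3p had 2823, 1764, 1611, 1417 and 1649 counts, or 333 ± 42.6 CPM. The order miR-101a-3p, miR-101c, miR-101b-3p held in each of the 5 libraries without overlap of the CPM ranges, and miR-101a-3p took 68.1% ± 0.402 of the family's counts.

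**Figure D1:**
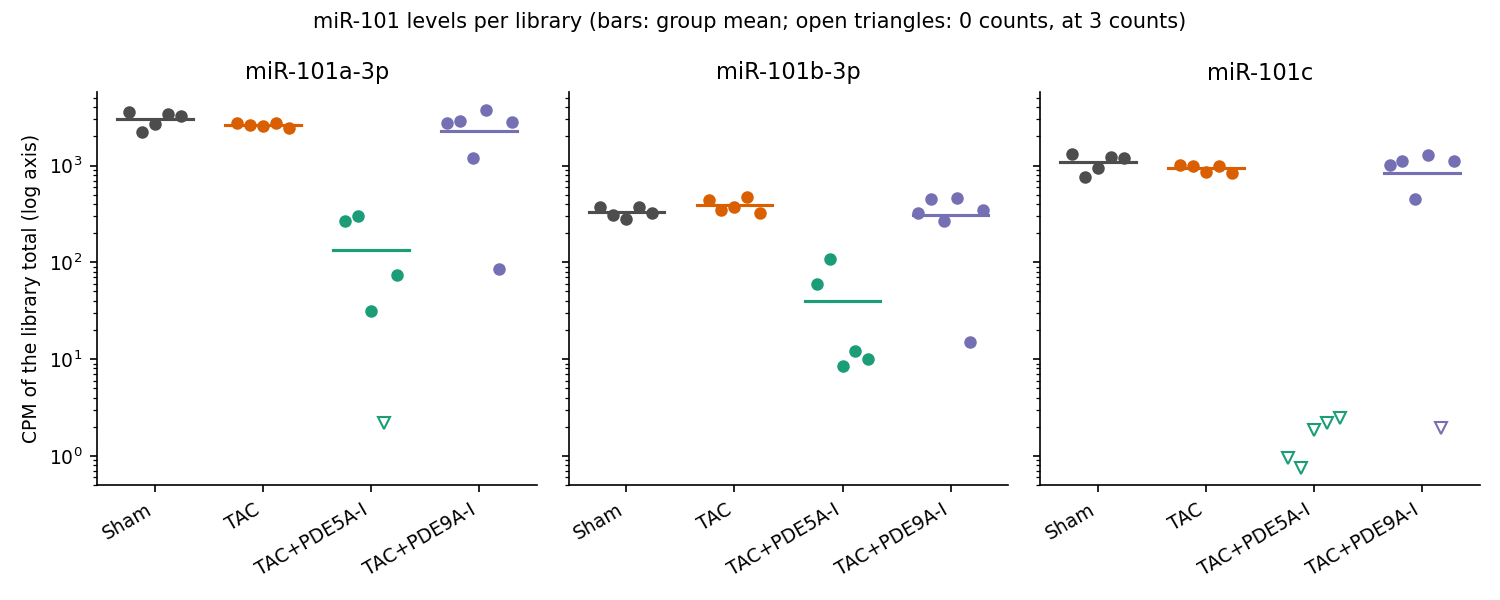
CPM of the library total (log axis) of each member in each library, by group, with the group mean as a bar; open triangles are libraries with 0 counts, drawn at the level of 3 counts. The 15 deep libraries sit together for each member, while the TAC+PDE5A-I libraries and 1 TAC+PDE9A-I library lie far below, and miR-101c has no count in those 6.

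TAC against Sham asked whether pressure overload changed the family, a comparison that did not enter its choice. None of the 3 members passed. miR-101a-3p had 15681, 18632, 15220, 23565 and 13150 counts in TAC 1 to 5, a level of 2629 ± 143 CPM (n = 5), inside the Sham range of 2226 to 3586 CPM. Its fitted log2 fold change was -0.36 ± 0.83 (SE, edgeR quasi-likelihood test, Benjamini-Hochberg adjusted p = 0.973). miR-101c had 5706, 7064, 5170, 8487 and 4556 counts, or 942 ± 77.8 CPM, with a log2 fold change of -0.36 ± 0.83 (adjusted p = 0.973).

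miR-101b-3p had 2470, 2471, 2227, 3996 and 1752 counts in TAC 1 to 5, or 390 ± 61.4 CPM. Its range of 326 to 470 CPM overlapped the Sham range of 280 to 377 CPM, and the log2 fold change was 0.08 ± 0.63 (adjusted p = 0.986). This direction was not stable, as it turned to -0.018 without TAC 1 and -0.0087 without TAC 4. Of 561 microRNAs tested by edgeR, 2.14% were called higher and 0.178% lower in TAC. The fit of all 4 groups took its spread partly from the 6 shallow libraries. Without them the SE of miR-101a-3p was 0.25 and that of miR-101b-3p 0.19, and the log2 fold changes of -0.31 and 0.13 still did not pass (adjusted p = 0.472 and 0.746). miR-101c had -0.31 ± 0.25 there (adjusted p = 0.478).

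In TAC+PDE9A-I, 5 of 6 libraries held at least 1563 counts of each member, and TAC+PDE9A-I 5 held 131 or fewer. miR-101a-3p had 18445, 16841, 7004, 28376, 131 and 13633 counts in replicates 1 to 6. The level was 84.7 CPM in replicate 5 and 1212 to 3767 CPM in the others. Replicate 3, with a total of 5777580 counts, was the next lowest, below every Sham and TAC library. miR-101b-3p had 2199, 2585, 1563, 3443, 23 and 1672 counts, which is 14.9 CPM in replicate 5 and 271 to 457 CPM in the others. miR-101c had 6878, 6416, 2639, 9676, 0 and 5330 counts, which is no count in replicate 5 and 457 to 1285 CPM in the others. Replicate 3 was thus the lowest of the 5 for all 3 members.

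TAC+PDE9A-I against TAC asked what PF-04449613 did to the overloaded heart. Because low counts in replicate 5 entered the choice of the family, the members were tested without that library, and none passed. Log2 fold changes were -0.01 ± 0.72 for miR-101a-3p, -0.12 ± 0.51 for miR-101b-3p and 0.04 ± 0.26 for miR-101c (SE, edgeR, adjusted p = 1.00 for each). In that fit 1 of 560 microRNAs, or 0.179%, was called, and it was not a member. That fit still held the TAC+PDE5A-I libraries, whose counts also entered the choice, and took its spread partly from them. Without any shallow library the members had -0.0067 ± 0.25, -0.13 ± 0.19 and 0.042 ± 0.25, in the same order, and none passed. With all 4 groups and replicate 5 included, the fitted log2 differences were -0.27 ± 0.79, -0.38 ± 0.60 and -0.23 ± 0.79, given as a description. The sign of miR-101c thus rested on replicate 5. With all 6 libraries 0% of the 561 microRNAs were called by edgeR, against 16 at an unadjusted p under 0.05 and 1 called by DESeq2.

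The 5 TAC+PDE5A-I libraries are described without a test, because the family was chosen by its counts there. miR-101a-3p had 842, 1198, 51, 0 and 90 counts in replicates 1 to 5, which is 267, 302, 31.3, 0 and 74.7 CPM. All 5 lay below every Sham and TAC library, and replicates 1 and 2, the deepest of the group, held the most. miR-101b-3p had 187, 428, 14, 17 and 12 counts, which is 59.4, 108, 8.58, 12.3 and 9.96 CPM. miR-101c had 0 counts in all 5. In replicate 4, miR-101a-3p was at 0 while miR-101b-3p, elsewhere the scarcer of the pair, had 17 counts.

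The fitted log2 differences from TAC were -4.38 ± 0.95 (SE) for miR-101a-3p and -3.39 ± 0.70 for miR-101b-3p. Without TAC+PDE5A-I 2 they were -5.04 and -4.32. For miR-101c only a bound can be given: it was at least 588-fold lower, set against 3 counts per library on TMM-scaled CPM. In this comparison 24.8% of the 561 microRNAs were called lower and 21.6% higher by edgeR, and nothing about the members is read from that share. Fewer cells that make a microRNA and less of it per cell cannot be told apart in whole tissue. All 5 TAC+PDE5A-I libraries were shallow, so sildenafil and the state of the libraries cannot be told apart either, for any microRNA. Over the microRNAs with a RefSeq sequence alone, their count-weighted GC content was 46.0 to 48.6%, against 44.6 to 45.3% in the deep libraries. Those microRNAs held 32.0 to 54.5% of the counts in TAC+PDE5A-I and 50.9 to 64.9% in the deep libraries. The ranges thus do not cover the same share of the counts. TAC+PDE9A-I 5, shallow and without sildenafil, held 131, 23 and 0 counts of miR-101a-3p, miR-101b-3p and miR-101c. Within mice whose ear tags were in the 600s, miR-101a-3p measured 0 to 74.7 CPM in 3 TAC+PDE5A-I libraries and 2447 to 2773 CPM in 2 TAC libraries. In the 500s it measured 267 and 302 CPM in 2 TAC+PDE5A-I libraries and 2552 CPM in 1 TAC library. The 4 TAC+PDE9A-I libraries of the 500s ran from 84.7 to 3767 CPM. The lowest, TAC+PDE9A-I 5, was below both TAC+PDE5A-I libraries of the 500s.

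**Figure D2:**
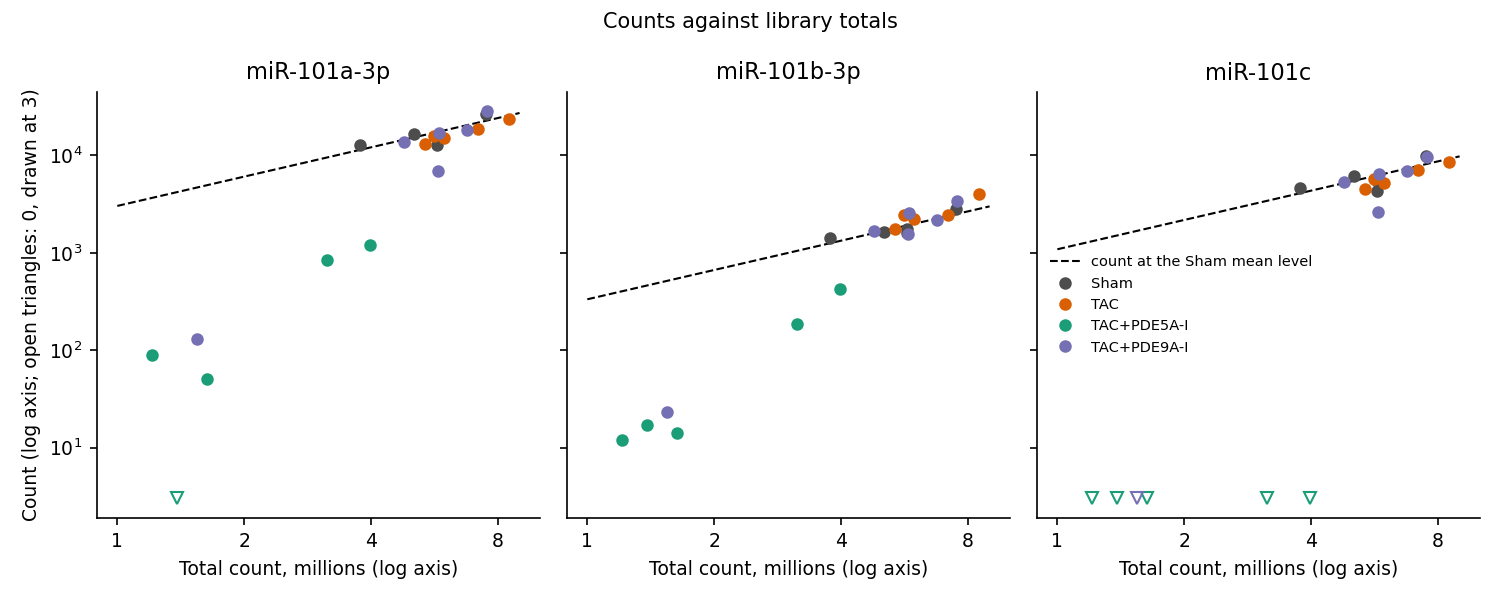
Count of each member against the total count of the library (both axes log), with the count a library would hold at the mean Sham level as a dashed line; open triangles are counts of 0, drawn at 3. The 15 deep libraries follow the line apart from TAC+PDE9A-I 3 for miR-101a-3p and miR-101c, and the 6 others fall below it by more than their totals give.

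The counts of the 6 shallow libraries were lower than their totals give at the level of Sham. At the mean Sham level, TAC+PDE5A-I 2 with its 3969716 counts would hold 12036 counts of miR-101a-3p, 1323 of miR-101b-3p and 4319 of miR-101c. It held 9.95%, 32.3% and 0% of those. The shallowest library, TAC+PDE5A-I 5, would hold 3655, 402 and 1311 counts and held 2.46%, 2.99% and 0%. TAC+PDE9A-I 5 would hold 4688, 515 and 1682 counts and held 2.79%, 4.46% and 0%. Sham 4, with 3766517 counts in all, held 112%, 113% and 112%. Of 58 microRNAs with a Sham mean of at least 1000 CPM, 2 had a count of 0 in any of the 6 shallow libraries, miR-101a-3p and miR-101c, and only miR-101c was at 0 in all 6. Of 138 with a Sham mean of at least 100 CPM, 9 had a 0 in any of the 6 and miR-101c alone was at 0 in all 6. In any of the 15 deep libraries, 1 of the 138 and 0 of the 58 had a 0. The family was chosen for its low or missing counts in the shallow libraries, so its place among these zeros is a description only.

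The ratio of miR-101c to miR-101a-3p, the nested pair, was narrow in range in the deep libraries. In the 15 deep libraries it ran from 0.339 to 0.391, while miR-101a-3p ran from 7004 to 28376 counts. It was 0.357 ± 0.0128 in Sham (SD, n = 5) and 0.358 ± 0.0154 in TAC (n = 5), a difference smaller than the spread between replicates. In TAC+PDE9A-I without replicate 5 it was 0.373 ± 0.0189 (n = 5), and TAC+PDE9A-I 3, low in both members, had 0.377.

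In the 6 shallow libraries the ratio was 0 wherever miR-101a-3p had a count. With 1198 counts of miR-101a-3p in TAC+PDE5A-I 2, the lowest ratio of the deep libraries would give 406 counts of miR-101c. The count of 0 there allows a ratio of up to 0.0025. In TAC+PDE5A-I 1, 842 counts would give 285. Over the 6 libraries together, 2312 counts of miR-101a-3p stood beside 0 of miR-101c, where the lowest deep ratio would give 784.  The sources used here do not say how reads that match both names were assigned, and the part of that step in this result was not tested.

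**Figure D3:**
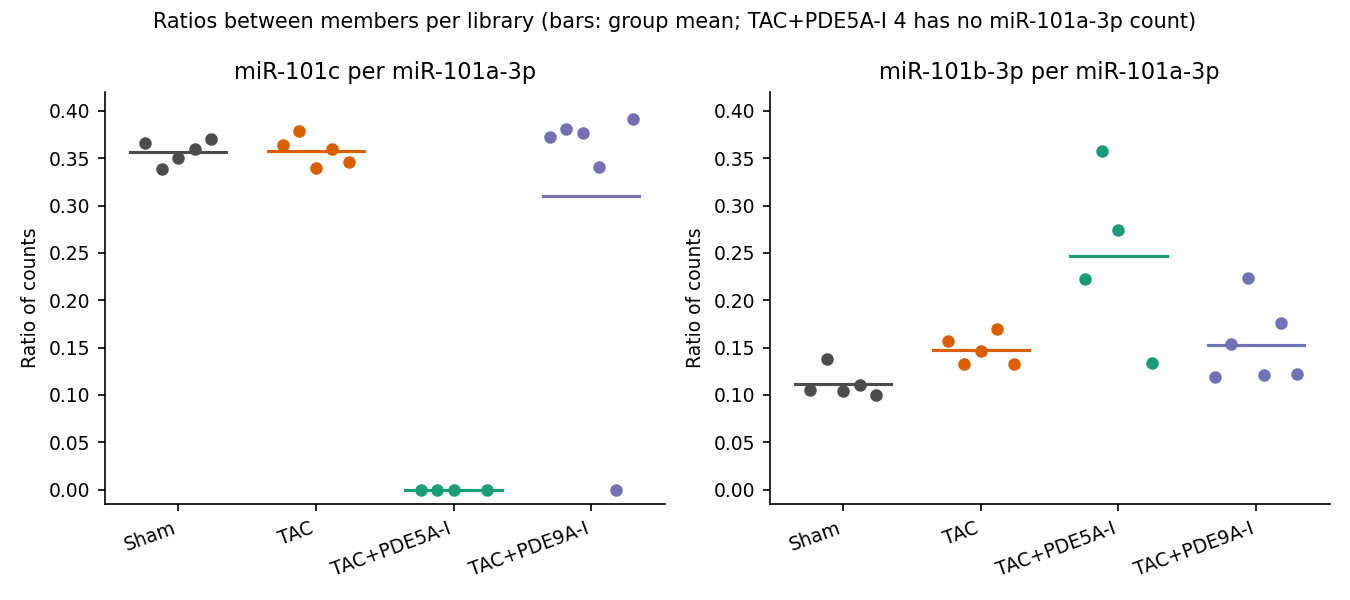
Ratio of counts of miR-101c (left) and miR-101b-3p (right) to miR-101a-3p in each library, by group, with the group mean as a bar; TAC+PDE5A-I 4 has no miR-101a-3p count and no point. The left ratio lies between 0.339 and 0.391 in 15 libraries and at 0 in 5, and the right ratio is spread from 0.1002 to 0.357.

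The ratio of miR-101b-3p to miR-101a-3p was less even. It was 0.112 ± 0.0153 in Sham (n = 5) and 0.148 ± 0.0159 in TAC (n = 5), and the groups overlapped only through Sham 2, at 0.138, against a TAC range of 0.133 to 0.170. In TAC+PDE9A-I it was 0.223 in replicate 3 and 0.119 to 0.176 in the others. In the 4 TAC+PDE5A-I libraries with a miR-101a-3p count it ran from 0.133 to 0.357. This ratio was described without a test.

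The passenger arm was measured for the miR-101a hairpin and hardly at all for miR-101b. These arms did not enter the choice of the family. miR-101a-5p had 180, 91, 118, 98 and 136 counts in Sham and 83, 186, 119, 130 and 92 in TAC, or 22.7 ± 4.52 and 18.6 ± 4.58 CPM (n = 5 each). Its log2 fold change in TAC was -0.45 ± 0.64 (edgeR adjusted p = 0.920). miR-101b-5p had 21 counts in TAC+PDE9A-I 4 and 0 in the other libraries, and did not enter the fit.

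In TAC+PDE5A-I, miR-101a-5p had 19, 44, 0, 0 and 0 counts. It was lower, with a log2 fold change of -2.34 ± 0.69 against TAC (edgeR adjusted p = 0.0113). Such a call was common in these shallow libraries, as 24.8% of the 561 tested microRNAs were called lower. All 5 libraries lay below every TAC library. The same was not counted for the other microRNAs, so nothing particular to miR-101a-5p is read from this. Without TAC+PDE5A-I 2, which had most of the counts, the value was -3.47. In TAC+PDE9A-I it had 103, 104, 73, 143, 9 and 82 counts. With replicate 5 included it had -0.37 ± 0.61 against TAC (edgeR adjusted p = 0.991), and -0.21 ± 0.63 without that library. Per 100 counts of miR-101a-3p, the passenger arm had 0.504 to 1.04 in the 15 deep libraries. It had 2.26 and 3.67 in TAC+PDE5A-I 1 and 2 and 6.87 in TAC+PDE9A-I 5, so in these 3 libraries the guide arm was further below the deep libraries than the passenger arm of the same hairpin. TAC+PDE5A-I 3, 4 and 5 had no passenger count. The GC content of miR-101a-5p is 45.5%, against 33.3% in the guide arm, and its part in the difference between the arms was not tested.

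**Figure D4:**
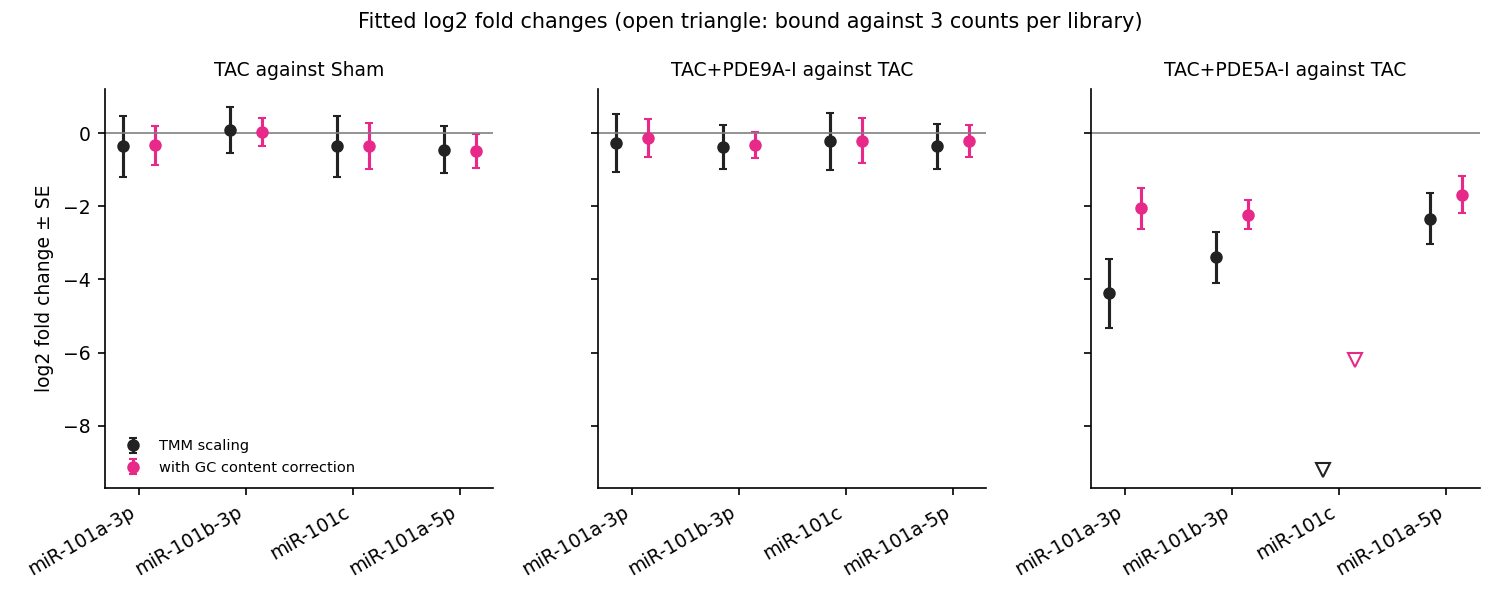
Fitted log2 fold change with its SE for the 3 members and the passenger arm miR-101a-5p in 3 comparisons, with TMM scaling (black) and with a GC content correction (pink); open triangles are bounds against 3 counts per library. Values lie near 0 in the first and second comparisons, and in TAC+PDE5A-I against TAC they run from -2.34 to -9.20 with TMM scaling and from -1.68 to -6.21 with the correction.

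GC content moved with these values across the table. Of 561 tested microRNAs, 487 had a RefSeq sequence, and 71 other than the members had a GC content within 5 percentage points of miR-101a-3p. In TAC+PDE5A-I against TAC, 45 of the 71 were lower, 1 was higher and 25 were not called. The median log2 fold change of the list was -2.37. The same over all 561 was -0.31, with 24.8% lower. With the 6 of the list that had no count in TAC+PDE5A-I at their bound against 3 counts, and 39 of all tested likewise, the medians were -2.17 and -0.18. With a correction for GC content, in a fit of only the microRNAs with a RefSeq sequence, 11 of the list were lower. The correction moved miR-101a-3p from -4.38 to -2.06 ± 0.56, miR-101b-3p from -3.39 to -2.23 ± 0.40 and the bound of miR-101c from -9.20 to -6.21 on the log2 scale. For TAC against Sham the list had 1 higher and 1 lower, with a median of -0.20 (all tested -0.08). For TAC+PDE9A-I against TAC, with the shallow replicate 5 included, it had 0 called of 71, with a median of -0.20 (all tested -0.04). The part of GC content in the low counts was not tested beyond this correction.

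Of this list, only microRNAs with a mean of at least 10 CPM over the 21 libraries were ranked by p. Among those, the 3 lower with the smallest p in TAC+PDE5A-I against TAC were miR-142a-5p, miR-144-3p and miR-208b-3p. They were miR-142a-5p of leukocytes (-4.52 ± 0.66), miR-144-3p of red cell precursors (-4.84 ± 0.78) and miR-208b-3p from the Myh7 gene of slow myosin (-4.07 ± 0.68). Their edgeR adjusted p were 0.000181, 0.000381 and 0.000453. The 1 higher was let-7a-5p (0.55 ± 0.16, adjusted p = 0.0114). In TAC against Sham the 2 called were miR-208b-3p (4.13 ± 0.68, adjusted p = 0.00172) and miR-9-5p (-1.21 ± 0.31, adjusted p = 0.0429).

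**Figure D5:**
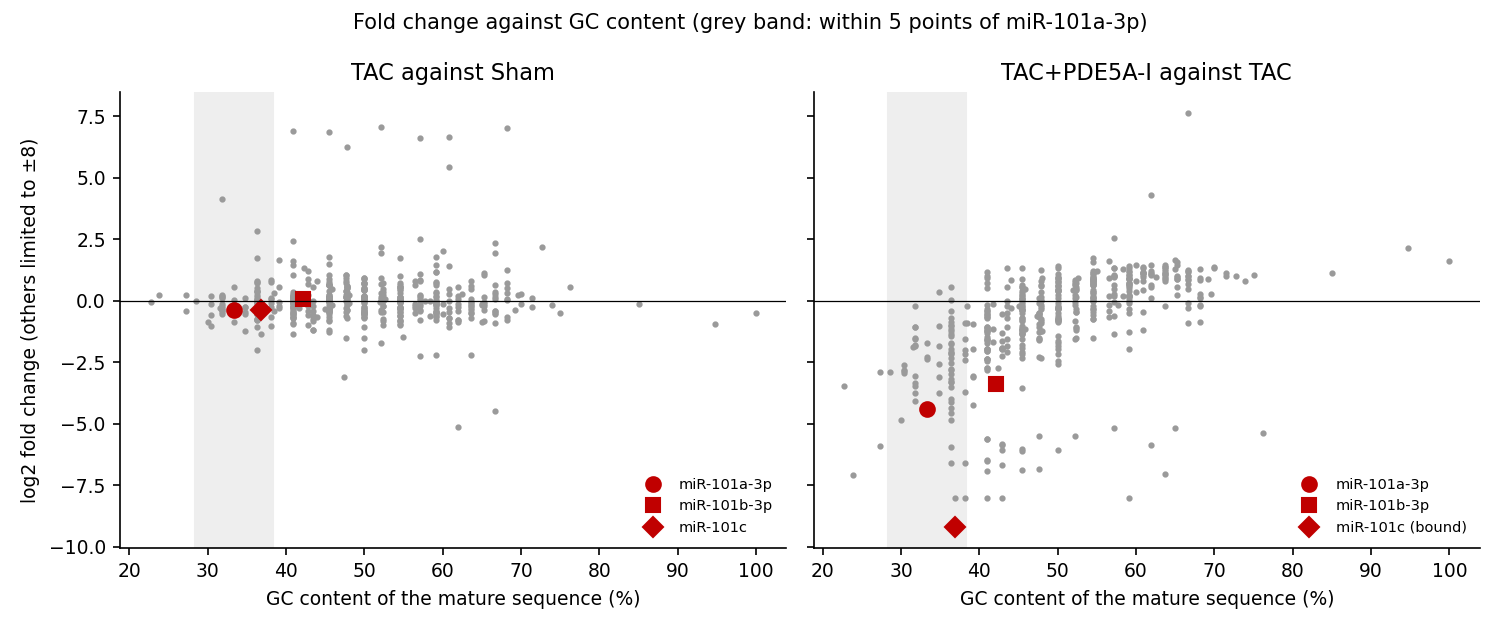
Log2 fold change against GC content of the mature sequence for 487 microRNAs in TAC against Sham (left) and TAC+PDE5A-I against TAC (right), with the members in red and the band within 5 points of miR-101a-3p in grey; 5 other points beyond 8 are drawn at the limit. On the right, microRNAs of low GC content lie lower, and the members are at -4.38, -3.39 and a bound of -9.20.

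Among the tested microRNAs with a RefSeq sequence, miR-144-3p is the 1 other with the same bases 2 to 7 as miR-101a-3p, and it is shown for that shared core.
miR-144-3p: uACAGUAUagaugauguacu
It had 1221, 338, 655, 1171 and 706 counts in Sham and 263, 396, 871, 983 and 689 in TAC, which overlapped in CPM (-0.85 ± 0.64, edgeR adjusted p = 0.690). In TAC+PDE5A-I it had 11, 19, 5, 2 and 5 counts, all below the other groups except TAC+PDE9A-I 5, with 6. miR-144-3p has 30% GC, and its log2 fold change against TAC, -4.84, is given with the GC list. In TAC+PDE9A-I against TAC, with replicate 5 included, it did not pass (-0.69 ± 0.60, edgeR adjusted p = 0.991).

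None of 10 other microRNAs described as limiting fibrosis or hypertrophy in the heart passed in TAC against Sham. Their median log2 fold change was -0.47, where all tested had -0.08. In TAC+PDE9A-I against TAC, with the shallow replicate 5 included, none passed either (-0.15, where all had -0.04). In TAC+PDE5A-I against TAC, where all drug libraries were shallow, 6 of 10 were lower and 1 higher, beside 24.8% lower and 21.6% higher of all tested. The other 3 did not pass. The collagen-repressing miR-29b-3p and miR-29c-3p fell (-2.57 ± 0.46 and -2.10 ± 0.53, edgeR adjusted p = 0.000882 and 0.00479), while miR-29a-3p of the same family had -0.41 ± 0.21 (adjusted p = 0.113). The muscle microRNA miR-1a-3p fell by 3.41 on the log2 scale (± 0.90, adjusted p = 0.00632), and its partner on the same transcripts, miR-133a-3p, rose (0.82 ± 0.25, adjusted p = 0.0143). miR-30a-5p, miR-26a-5p and miR-24-3p fell by 1.33, 1.103 and 0.75 on the log2 scale (edgeR adjusted p = 0.0152, 0.0167 and 0.0344). miR-30c-5p (-1.05 ± 0.44, adjusted p = 0.0586) and miR-133b-3p (0.23 ± 0.23, adjusted p = 0.443) did not pass.

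The microRNAs with the profile most like that of a member were found by the root mean square difference of centred log2 CPM, among 302 others with a mean of at least 10 CPM. Over the 21 libraries, in which the 6 shallow libraries weigh on every profile, the closest to miR-101a-3p were miR-142a-3p (0.74), miR-1a-3p (1.32), miR-215-5p (1.33), miR-455-5p (1.43) and miR-208a-3p (1.49), where the median of all was 3.28. miR-101b-3p was at 1.69 and miR-101c at 2.91. The closest to miR-101b-3p were miR-126a-5p (0.28), miR-322-5p (0.34), miR-542-3p (0.34), miR-145a-3p (0.46) and miR-450b-5p (0.46), with a median of 2.06. The closest to miR-101c were miR-1b-5p (2.36), miR-126b-3p (2.58), let-7f-1-3p (2.85), miR-215-5p (2.91) and let-7a-1-3p/let-7c-2-3p (2.98), with a median of 5.12.

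Over the 10 Sham and TAC libraries, miR-101a-3p and miR-101c were 0.0512 apart on the log2 scale, nearer to each other than either was to any of the 302. The next nearest to miR-101a-3p were miR-374b-5p (0.15), miR-30a-5p (0.16) and let-7a-1-3p/let-7c-2-3p (0.19), with a median of 0.44. The same 3 were nearest to miR-101c, at 0.19, 0.19 and 0.23. miR-101b-3p was 0.255 from miR-101a-3p, and nearer to miR-19b-3p, miR-152-3p and miR-148b-3p (0.14 each).

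Markers of the other cell types of the ventricle are given beside these levels for TAC and TAC+PDE5A-I, as the range over the 5 libraries of each. The summed level of the 2 erythroid markers miR-451a and miR-144-3p was 360 to 1029 CPM in TAC and 23.2 to 436 CPM in TAC+PDE5A-I. The 2 smooth muscle markers miR-143-3p and miR-145a-5p summed to 75690 to 129251 CPM and 5371 to 48652 CPM, nearly all of it miR-143-3p. miR-143-3p fell and miR-145a-5p rose, with log2 fold changes of -2.37 and 0.67 (edgeR adjusted p = 0.00415 and 0.0199). The endothelial marker miR-126a-3p measured 5693 to 9545 CPM and 496 to 8722 CPM. The 3 leukocyte markers miR-142a-3p, miR-223-3p and miR-150-5p summed to 1006 to 2273 CPM and 2211 to 3230 CPM, a sum made up mostly of miR-150-5p, and miR-142a-3p was at 0 in a TAC+PDE5A-I library. Singly, miR-142a-3p and miR-223-3p fell and miR-150-5p rose, with log2 fold changes of -3.08, -2.37 and 1.2605 (edgeR adjusted p = 0.0125, 0.00301 and 0.0140). The 4 heart muscle microRNAs summed to 70067 to 145761 CPM and 158434 to 227498 CPM, a sum made up mostly of miR-133a-3p. miR-499-5p and miR-208a-3p, taken singly, fell in TAC+PDE5A-I against TAC, with log2 fold changes of -2.37 and -3.31 (edgeR adjusted p = 0.0114 and 0.00307). The part of these cell types in the low counts of the family was not tested, nor was that of the shallow libraries in the marker levels.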

How the data were processed

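The authors deposited raw read counts per mature microRNA, not normalised, for 21 libraries made with an Illumina small RNA kit from 500 ng of total RNA, per the labels' protocols. Per the submitters' processing notes, Bowtie 1.1.1, cutadapt 1.8, DESeq 1.26.0 and CASAVA 1.8.4 were used; their roles, the build and the annotation were not given in the sources used here. The table had 25958 lines, of which 24055 were blank and 1903 named; no value was 1.

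The members and lists were chosen with earlier results of these data known. Counts were fitted in R 4.3.3 with edgeR 4.0.16: filterByExpr by group (561 kept), TMM, a robust quasi-likelihood fit of all 4 groups, and Benjamini-Hochberg adjustment over all 561, called at 0.05. The fit was also run on simulated data with set changes. Those data had the same spread in every library, so they do not cover the spread seen in the shallow libraries. Levels are CPM of the library total. Alternatives were other scalings, DESeq2 1.42.0, no filter, 2 groups only, the replicate block, the leading digit of the ear tag, a spline on GC content and leaving out libraries, and, added after seeing the data, leaving out all 6 shallow libraries and summing miR-101a-3p with miR-101c. Named microRNAs were the members, their 5p arms, the seed-core and fibrosis lists, the 3 called with the smallest p per direction in the GC list, the closest profiles (5 over 21 libraries, 3 over 10) and cell type markers. Each sample is 1 mouse, and the sources used here state no pairing by replicate number.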

Additional observations from a re-analysis of the deposited data

Results flagged for a closer look

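2 of 22 groups of values examined held a library whose distance to its nearest neighbour was a large part of the group's range. Chance alone flags about 1 in 20 groups, but the ratio in TAC+PDE9A-I 5 is of the kind the family was chosen for, so the number flagged is not read against that rate. The ratio of miR-101c to miR-101a-3p was 0 in TAC+PDE9A-I 5, while the other 5 libraries of the group had 0.341 to 0.391. The ratio of miR-101b-3p to miR-101a-3p was 0.138 in Sham 2, while the other 4 Sham libraries had 0.1002 to 0.111.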

How the results depend on the processing

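In TAC against Sham and TAC+PDE9A-I against TAC no member passed under any alternative run. miR-101b-3p in TAC against Sham ran from -0.018 to 0.31 with 1 library left out, turning to -0.018 without TAC 1 and -0.0087 without TAC 4. miR-101c in TAC+PDE9A-I against TAC ran from -0.42 to 0.042 and turned to 0.042 without TAC+PDE9A-I 5, as it did, at 0.042, without all 6 shallow libraries.

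The number of microRNAs called in TAC against Sham was 13, and became 54 with DESeq2, 20 with no filter, 98 with the compared groups alone, 4 with the ear tag covariate, 81 without the 6 shallow libraries and 25 with miR-101a-3p and miR-101c summed. It ran from 3 to 32 with 1 library left out, 32 being without TAC+PDE9A-I 5. For TAC+PDE9A-I against TAC the count was 0, and became 1 with upper-quartile scaling, 1 with DESeq2, 1 with the GC correction, 0 to 1 with 1 library left out and 2 without the shallow libraries. For TAC+PDE5A-I against TAC it was 260, and became 152 with the GC correction and 145 with that and the replicate block. It ran from 165 to 280 with 1 library left out, 165 being without TAC+PDE5A-I 3. The GC settings left out microRNAs without a RefSeq sequence, such as miR-133a-3p, and took library totals and scaling from the rest. The numbers called there are thus not over the same microRNAs as 260. The lower microRNAs of the GC list went from 45 to 11 and 9 in those GC settings. The bound of miR-101c went from -9.20 to -8.62 with upper-quartile scaling, -9.46 with no filter and -6.21 in both GC settings, and ran from -9.65 to -9.13 with 1 library left out. The cause of these shifts was not tested.

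Same-numbered mice of different groups did not deviate together (correlations from -0.208 to 0.193). These few correlations cannot exclude a pairing, and the main fit did not pair mice by number. With the replicate block miR-101a-3p had -0.38 in TAC against Sham, -0.66 in TAC+PDE9A-I against TAC and -4.78 in TAC+PDE5A-I against TAC, where 264 microRNAs were called. Summing miR-101a-3p with miR-101c gave -0.18, -0.33 and -4.97. In that run miR-101b-3p, which was not summed, also moved in TAC against Sham, from 0.076 to 0.255. The shift of the sum is therefore not read as an effect of summing. Depth limits miR-101c in the 6 shallow libraries to 0.756 to 2.49 CPM or less.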
